A study of Homo sapiens with 27 samples.

Results

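The genes described here are 46 genes of the cell cycle, 31 that act in mitosis and 15 that copy DNA, out of 20268 genes in the deposited count tables. They were taken by symbol from a list of genes with these roles, and all 46 symbols were present. PAC-seq, which sequences the 3′ ends of polyadenylated RNA, had been run on 27 libraries of human prostate cancer cells in culture, from the lines LNCaP, which is hormone-sensitive, and LNCaP95 and 22Rv1, which are hormone-insensitive. All cells, controls included, were infected with lentivirus, selected with puromycin, plated at 5e+05 cells per well and cultured for 72 h in RPMI medium with 10% fetal bovine serum (for LNCaP95 without phenol red). In each line 3 libraries carried a non-targeting hairpin (CTRL sh), 3 carried CPSF1 sh1 and 3 carried CPSF1 sh2, so that 3 control and 6 knockdown libraries were compared per line. CPSF1 is the largest subunit of the complex that recognises the poly(A) signal and directs cleavage of pre-mRNA. The 3 replicates of a group are named biological replicates in the study's methods, and each line is a single established culture.

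Cells copy their DNA in S phase and separate the copies in mitosis. The MCM helicase is loaded at origins by CDC6 and CDT1 before S phase, cyclin E and the GINS complex help to start it, and PCNA, ribonucleotide reductase and thymidylate synthase serve DNA synthesis. Genes of this kind are classic targets of E2F and peak at the start of S phase, whereas cyclin B, CDK1, the Aurora kinases, PLK1, kinesins and kinetochore proteins peak in G2 and M and are controlled through CCAAT and CHR elements. Because the RNA came from whole cultures, fewer cells in a phase and less RNA per cell cannot be told apart.

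The 4 tables together held 3452413 to 12425417 reads per library, of which 48.4% to 59.5% lay in the 3′ UTR table, and the shallowest library was CTRL sh replicate 1 of 22Rv1. CPM is the read count of a gene scaled to the library's total in that table. The CPM values printed for single genes also include the library's TMM factor, which scales libraries to each other. CPSF1 itself had 184, 142 and 137 CPM in the LNCaP controls and 53.0 to 98.4 CPM in the 6 knockdown libraries. It fell in every line, by 1.19 ± 0.17 (log2, SE) in LNCaP, by 1.05 ± 0.18 in LNCaP95 and by 0.73 ± 0.14 in 22Rv1, with adjusted p values of 8.31e-05, 0.000301 and 0.0165 by edgeR's quasi-likelihood test. All 8 luminal prostate markers averaged above 2 CPM in each line. Summed, they had 7687 to 8398 CPM in LNCaP95 controls against 3816 to 4950 CPM after knockdown, 4833 to 5124 against 3306 to 3740 CPM in LNCaP, and 2033 to 2322 against 1780 to 2373 CPM in 22Rv1. The 10 measured markers of basal, mesenchymal, endothelial and immune cells summed to 30.1 to 134.8 CPM over all libraries, with 79.0 to 87.4 CPM in LNCaP95 controls and 86.5 to 134.8 CPM after knockdown. Of these 10, 2 averaged above 2 CPM in the controls of each line. After knockdown 3 did in LNCaP, 3 in LNCaP95 and 2 in 22Rv1. KRT5 and PTPRC were at 0 in every LNCaP and LNCaP95 library. The part of these marker levels in the results was not tested.

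In LNCaP95, knockdown of CPSF1 moved the 3′ UTR reads of the sets in opposite directions. Of the 31 mitosis genes 14 fell and none rose, and of the 15 replication genes 10 rose and none fell (edgeR, adjusted p under 0.05). Of all 11277 genes tested in this line, 15.2% were called lower and 15.2% were called higher. The median log2 fold change was -0.43 over the mitosis genes and 0.85 over the replication genes, against 0.01 over all genes, and 29 of 31 mitosis genes lay below 0 while 14 of 15 replication genes lay above it. All 46 genes passed the filter of a mean above 2 CPM in each line.

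CDC20, which activates the anaphase-promoting complex, had 971, 790 and 871 CPM in the LNCaP95 controls and 303 to 450.5 CPM (median 351) in the knockdown libraries. It fell by 1.25 ± 0.14 on the log2 scale (adjusted p = 4.47e-06). Every knockdown library lay below every control. CCNA2, the cyclin of S phase and G2, had 94.5, 102.1 and 103.6 CPM in controls and 41.8 to 57.7 CPM (median 50.9) after knockdown, and fell by 0.99 ± 0.13 (adjusted p = 1.83e-05). TTK, a kinase of the spindle checkpoint, had 51.9, 46.8 and 61.3 CPM against 14.9 to 28.2 CPM (median 26.4), and fell by 1.13 ± 0.18 (adjusted p = 0.000127). Neither gene showed any overlap between the groups.

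AURKA, CDK1, MKI67 and CENPF were also called lower. AURKA, which matures the spindle poles, had 153.5, 123 and 132 CPM in LNCaP95 controls and 84.7 to 106 CPM (median 98.4) after knockdown, a fall by 0.49 ± 0.13 (adjusted p = 0.0091). CDK1, the kinase that drives entry into mitosis, had 274, 337 and 260.5 CPM against 145 to 288 CPM (median 210.1), and its fall by 0.44 ± 0.16 was near the threshold (adjusted p = 0.0491). The CDK1 groups overlapped, with 5 of 6 knockdown libraries below all controls. MKI67, the proliferation antigen, had 105.5, 75.4 and 108 CPM against 58.8 to 88.5 CPM (median 64.9) and fell by 0.48 ± 0.16 (adjusted p = 0.0257). CENPF, a kinetochore protein of G2, had 65.1, 76.2 and 56.4 CPM against 35.0 to 56.7 CPM (median 42.9) and fell by 0.54 ± 0.16 (adjusted p = 0.0153). For MKI67 and CENPF 4 and 5 of 6 knockdown libraries lay below all controls.

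The other mitosis genes that fell in LNCaP95 were CCNB2 (-1.05), a B-type cyclin, the kinesins KIF2C (-0.72) and KIF23 (-0.57), the spindle assembly factor TPX2 (-0.62), the checkpoint kinase BUB1 (-0.59), AURKB (-0.57), the kinase of the chromosomal passenger complex, and NUF2 (-0.51), a subunit of the NDC80 kinetochore complex, all as log2 fold changes. Some genes of the same processes did not pass the test. PLK1, a kinase acting throughout mitosis, had 49.12, 49.98 and 45.95 CPM in controls and 33.5 to 44.4 CPM (median 38.4) after knockdown (log2 -0.32, adjusted p = 0.0861). BIRC5, the survivin of the passenger complex, had 156, 152.5 and 172 CPM against 122 to 143 CPM (median 132; log2 -0.27, adjusted p = 0.101). The groups of PLK1 and BIRC5 did not overlap, although neither was called. CCNB1 had 120, 159 and 140.5 CPM against 93.0 to 129 CPM (log2 -0.32, adjusted p = 0.0777), and TOP2A, the topoisomerase that untangles chromosomes, had 38.5, 62.2 and 44.3 CPM against 29.5 to 58.8 CPM (log2 -0.20, adjusted p = 0.481).

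Among the replication genes, MCM4 of the helicase had 35.0, 38.4 and 38.6 CPM in the LNCaP95 controls and 66.7 to 83.2 CPM (median 75.8) in the knockdown libraries, and rose by 1.01 ± 0.14 (adjusted p = 3.74e-05). MCM3 had 55.1, 43.3 and 64.0 CPM against 90.1 to 125 CPM (median 101.5) and rose by 0.96 ± 0.15 (adjusted p = 0.000151). MCM6 had 10.98, 19.95 and 17.85 CPM against 28.0 to 51.5 CPM (median 40.9) and rose by 1.29 ± 0.22 (adjusted p = 0.000234). In each of these 3 helicase subunits all knockdown libraries were above all controls. MCM2 had 30.7, 43.9 and 32.0 CPM against 44.3 to 85.4 CPM (median 71.1) and rose by 0.95 ± 0.19 (adjusted p = 0.00122), again without overlap, while MCM5 (0.35, adjusted p = 0.405) and MCM7 (0.38, adjusted p = 0.0545) were not called.

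CCNE2, the cyclin E that acts at the start of S phase, had the lowest counts of the genes named here, with 11, 25 and 22 reads or 2.05, 5.25 and 4.51 CPM in LNCaP95 controls and 7.06 to 15.3 CPM (median 10.9) after knockdown. It rose by 1.52 ± 0.34 (adjusted p = 0.00227). CDC6, the helicase loader, had 11.4, 14.3 and 15.2 CPM against 22.4 to 30.3 CPM (median 26.4) and rose by 0.97 ± 0.18 (adjusted p = 0.000697). No knockdown library of either gene reached down to a control. PCNA, the sliding clamp, had 73.9, 101 and 92.1 CPM against 121 to 203 CPM (median 164) and rose by 0.85 ± 0.17 (adjusted p = 0.00118), and GINS1 rose by 0.89 ± 0.22 (adjusted p = 0.00488). CDT1, the partner of CDC6, had 56.19, 38.01 and 72.83 CPM against 47.6 to 103 CPM (median 77.2), with overlap, and was not called (0.45, adjusted p = 0.124).

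Of the genes of nucleotide supply, RRM2 and TYMS were called and RRM1 was not. RRM2, the regulated subunit of ribonucleotide reductase, had 73.7, 59.6 and 72.6 CPM in LNCaP95 controls and 78.8 to 95.4 CPM (median 89.4) after knockdown, a rise by 0.36 ± 0.13 (adjusted p = 0.0427). TYMS, thymidylate synthase, had 99.6, 119 and 106 CPM against 116 to 178 CPM (median 148), a rise by 0.45 ± 0.15 (adjusted p = 0.035), with 5 of 6 knockdown libraries above all controls. RRM1, the large subunit of the same reductase as RRM2, was the replication gene below 0 (log2 -0.37, adjusted p = 0.0907).

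Counted over genes, 12 mitosis genes had all 6 knockdown libraries below all 3 controls in LNCaP95 and 10 replication genes had all 6 above, none the other way, where 14.3% of all genes tested lay wholly below and 13.5% wholly above. Without TMM scaling, which moved the median of all genes to 0.16, the split of called members went from 10 higher and 14 lower to 12 and 7, and scaled to the total of all 4 tables (median -0.09) it was 8 and 19. Over 18 other settings and single-library removals, the call held in 5 for CDK1, 7 for RRM2 and 11 for MKI67 and TYMS. It held in 12 for NUF2, 13 for AURKB, 15 for AURKA, CENPF and TPX2, and 16 for BUB1 and KIF23. CDC20 (-1.36 to -1.10), CCNA2, TTK, MCM3, MCM4, MCM6 (0.80 to 1.46) and CCNE2 (1.201 to 1.783) stayed called under every setting run and with any single library left out.

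**Figure D1:**
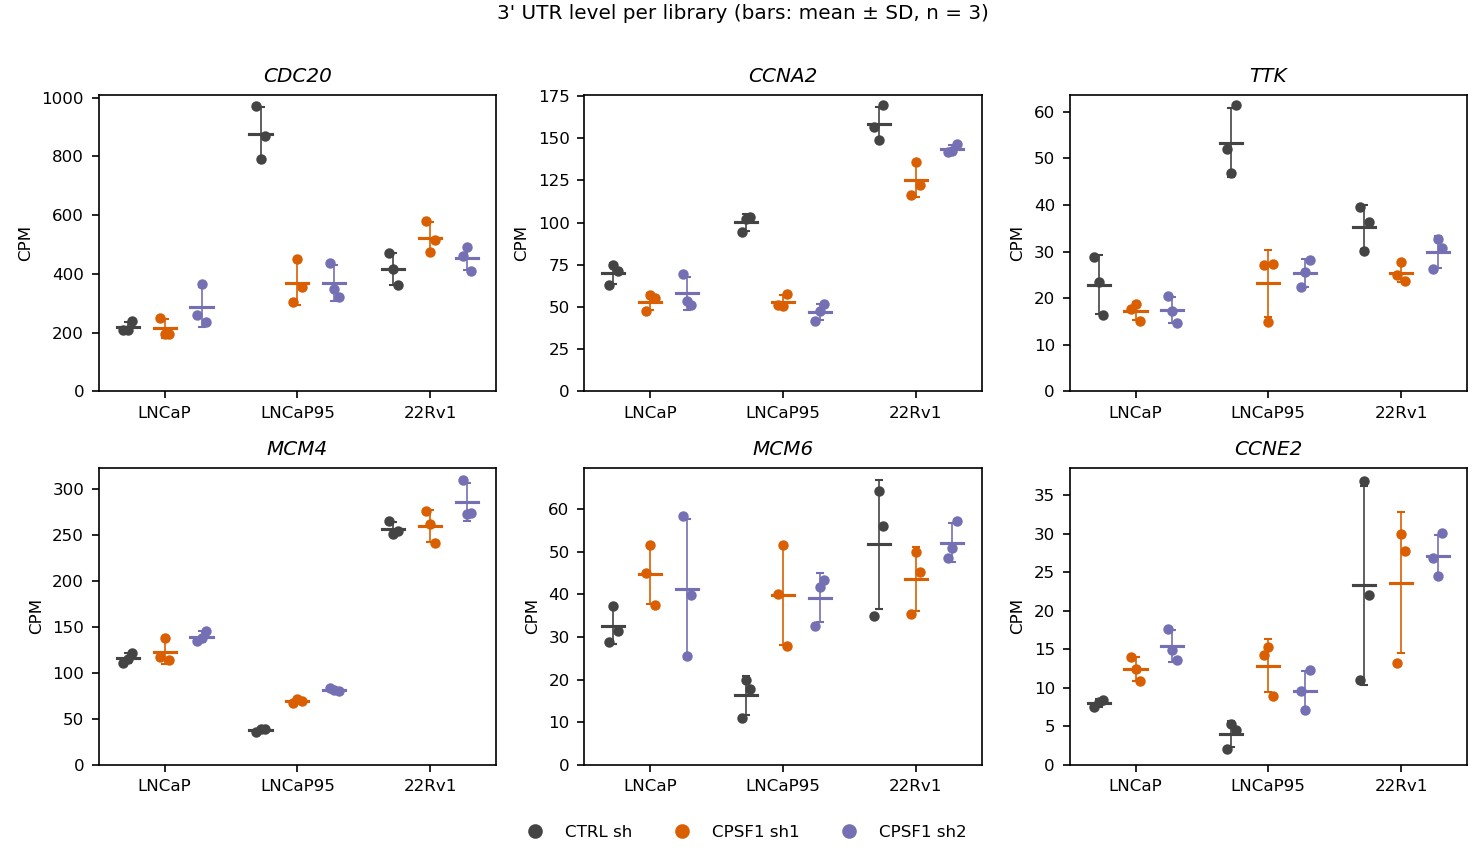
3′ UTR level (CPM, linear axis from 0) of 3 mitosis genes (upper row) and 3 replication genes (lower row) in every library, coloured by hairpin, with bars for the mean ± SD of the 3 libraries of a group. In LNCaP95 the control points of CDC20, CCNA2 and TTK lie above all knockdown points and those of MCM4, MCM6 and CCNE2 lie below them, whereas in 22Rv1 the groups overlap for all but CCNA2.

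In LNCaP, the line from which LNCaP95 was derived, few members moved. One mitosis gene of 31 fell and none rose, and 2 replication genes of 15 rose and 1 fell, where 8.24% of all genes tested were called higher and 10.1% lower. The medians were 0.05 for mitosis genes and 0.23 for replication genes. AURKB had 23.0, 20.2 and 26.3 CPM in controls and 9.84 to 17.7 CPM (median 13.9) after knockdown and fell by 0.74 ± 0.20 (adjusted p = 0.0155). CDT1 had 121, 76.1 and 89.9 CPM against 33.3 to 81.2 CPM (median 51.3) and fell by 0.83 ± 0.21 (adjusted p = 0.00944), with 5 of 6 knockdown libraries below all controls. CCNE2 had 7.46, 8.11 and 8.43 CPM against 10.9 to 17.7 CPM (median 13.8) and rose by 0.80 ± 0.24 (adjusted p = 0.0229), and TYMS had 79.6, 104 and 97.1 CPM against 110.4 to 131.5 CPM (median 124) and rose by 0.40 ± 0.13 (adjusted p = 0.0404). The groups of AURKB, CCNE2 and TYMS did not overlap. PCNA, with 109, 159 and 115 CPM against 140.1 to 216 CPM (median 173), was not called (0.49, adjusted p = 0.0544). CDK1 (0.34, adjusted p = 0.111) and CDC20 (0.21, adjusted p = 0.418) had positive values that did not pass either. The LNCaP count depended on single libraries: without CTRL sh replicate 1 no member was called, without CTRL sh replicate 3 there was 1 (CDT1), without CPSF1 sh2 replicate 1 there were 2 (AURKB and CDT1), and without CPSF1 sh2 replicate 2 there were 10.

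In 22Rv1 no member was called in either direction by edgeR, where 0.678% of all genes were called higher and 0.791% lower. At an unadjusted p under 0.05 there were 3 mitosis and 4 replication genes, 7 of 46 where 14.2% of all genes passed, and DESeq2 called 1 (RRM1, lower). The medians were -0.05 and -0.10. RRM1 had 519, 396 and 434 CPM in controls and 301 to 387 CPM (median 319.5) after knockdown (log2 -0.47 ± 0.12, adjusted p = 0.0654), without overlap. CDT1 had 263, 146 and 167 CPM against 95.4 to 159.8 CPM (median 118; log2 -0.63, adjusted p = 0.107), and RRM2 had 108, 167 and 161 CPM against 85.2 to 126 CPM (median 94.6; log2 -0.54, adjusted p = 0.112). For RRM1 all 6, for CDT1 5 and for RRM2 4 knockdown libraries lay below all controls. Among mitosis genes PLK1 had 33.7, 41.3 and 43.5 CPM against 47.1 to 54.9 CPM (median 48.5), without overlap (log2 0.31, adjusted p = 0.306). CDC20 had 470, 418 and 360.5 CPM against 410 to 581 CPM (median 482; log2 0.23, adjusted p = 0.46), and MCM6 had 34.9, 64.3 and 56.2 CPM against 35.3 to 57.3 CPM (log2 -0.15, adjusted p = 0.779). Without CTRL sh replicate 1 there were 2 calls (CCNB2 and RRM2, lower), and without CPSF1 sh1 replicate 1 also 2 (RRM1 and CDT1, lower).

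**Figure D2:**
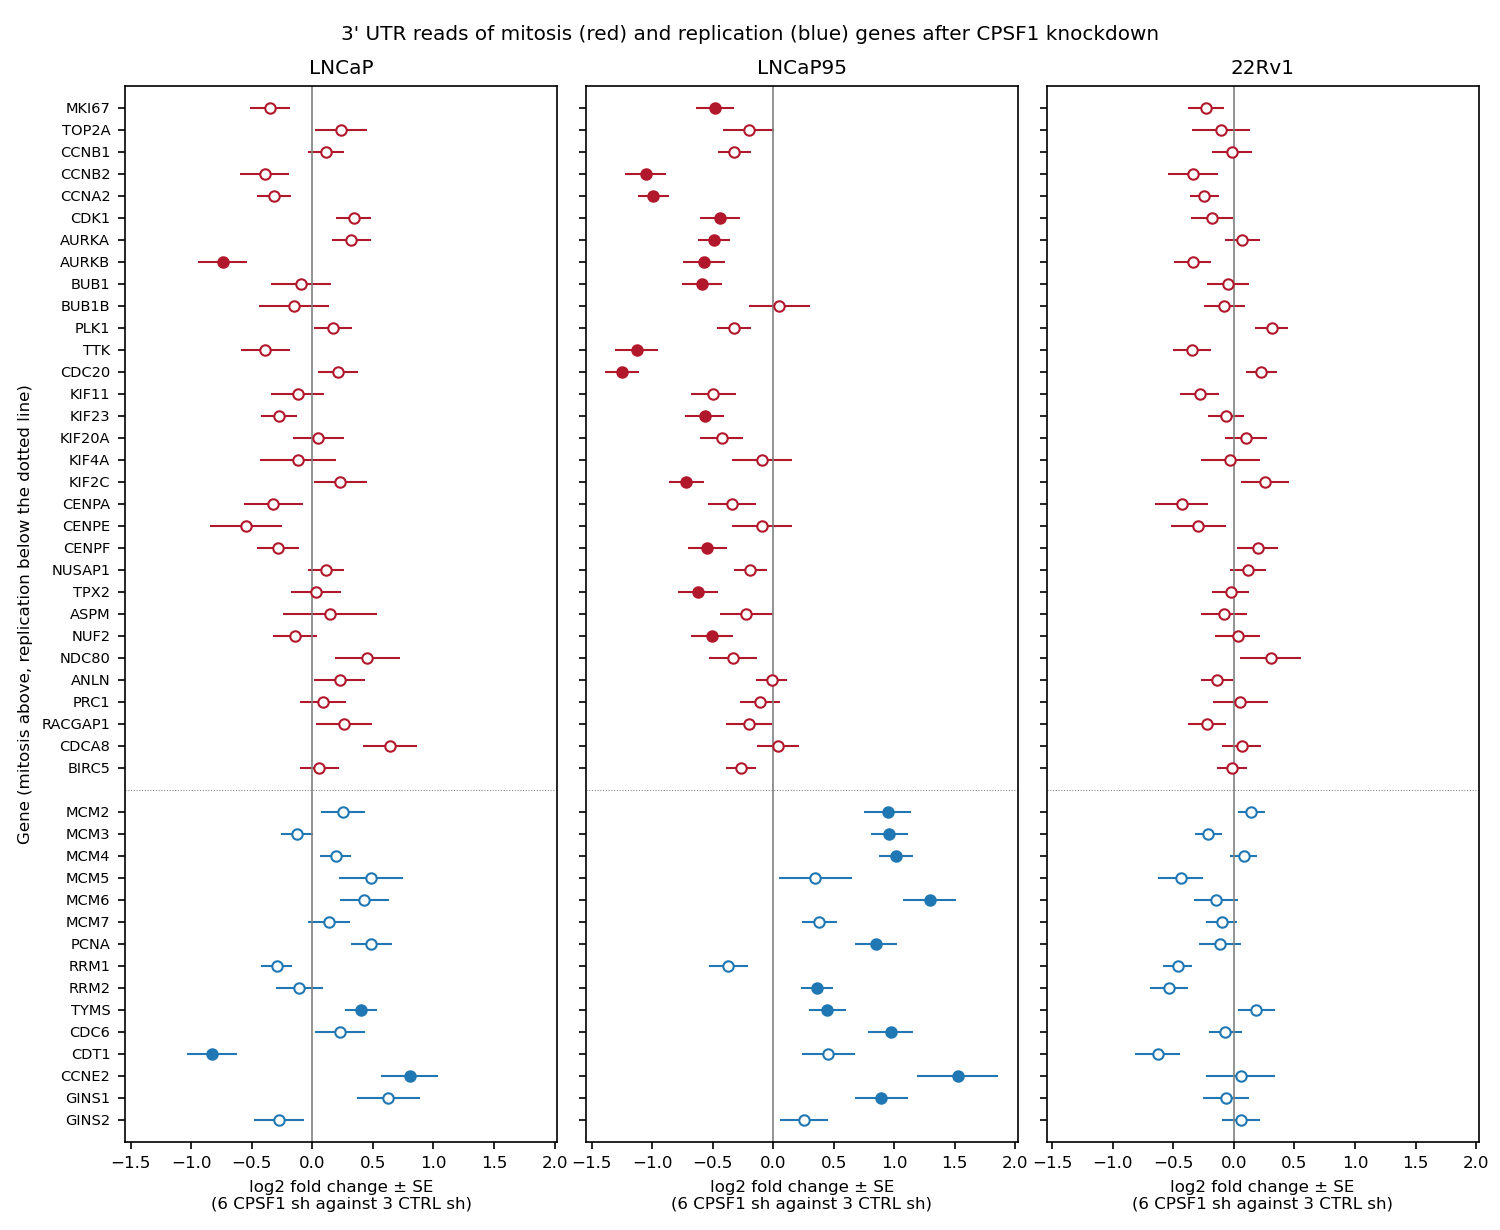
Log2 fold change of 3′ UTR reads (x axis, 6 knockdown against 3 control libraries, bars ± SE) for each of the 46 genes in the 3 lines, with mitosis genes in red above and replication genes in blue below the dotted line; filled points passed an adjusted p of 0.05. LNCaP95 has 14 filled red points left of 0 and 10 filled blue points right of it, LNCaP has 1 red and 3 blue filled points, and 22Rv1 has none.

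The difference between lines was itself tested, as an interaction in 1 fit over all 27 libraries. Between LNCaP95 and LNCaP the response differed for 9 of the 46 genes (9.58% of all genes in either direction). CDC20, CCNA2, CDK1, AURKA and KIF2C were lower in LNCaP95 relative to LNCaP, by 1.45 for CDC20 (log2, adjusted p = 3.83e-05), and MCM3, MCM4, CDC6 and CDT1 were higher, by 1.09 for MCM3 (adjusted p = 9.71e-05). Between 22Rv1 and LNCaP95 it differed for 16 (10.7% of all genes), 6 mitosis genes with a higher and 10 replication genes with a lower value in 22Rv1, among them CDC20 (1.48, adjusted p = 2.78e-05) and MCM3 (-1.16, adjusted p = 4.84e-05). Between 22Rv1 and LNCaP edgeR called none of the members (5.11% of all genes), with 3 mitosis and 3 replication genes at an unadjusted p under 0.05 (19% of all genes); DESeq2 was not run for this contrast. Without LNCaP CTRL sh replicate 1 the first count was 5, and without LNCaP95 CTRL sh replicate 1 the count for 22Rv1 against LNCaP95 was 9. Thus no member was called in the same direction in all 3 lines in the 3′ UTR table.

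The same pattern was seen in the level of the sets in each library, as the mean of log2(CPM + 1) over members, which is read between libraries and not between genes. In LNCaP95 the replication genes had a mean of 5.11 in controls, 5.72 with CPSF1 sh1 and 5.82 with CPSF1 sh2, while the mitosis genes had 5.86, 5.50 and 5.33. Replication minus mitosis was -0.81 to -0.70 in the 3 controls and 0.14 to 0.58 in the 6 knockdown libraries. In LNCaP this difference averaged 0.70 in controls, 0.85 with CPSF1 sh1 and 0.88 with CPSF1 sh2, and in 22Rv1 it was 0.93, 0.86 and 0.78. Knockdown shifted it by 1.10 in LNCaP95, 0.17 in LNCaP and -0.11 in 22Rv1. With the median over members in place of the mean the LNCaP shift was -0.04, so that its sign depended on the summary.

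**Figure D3:**
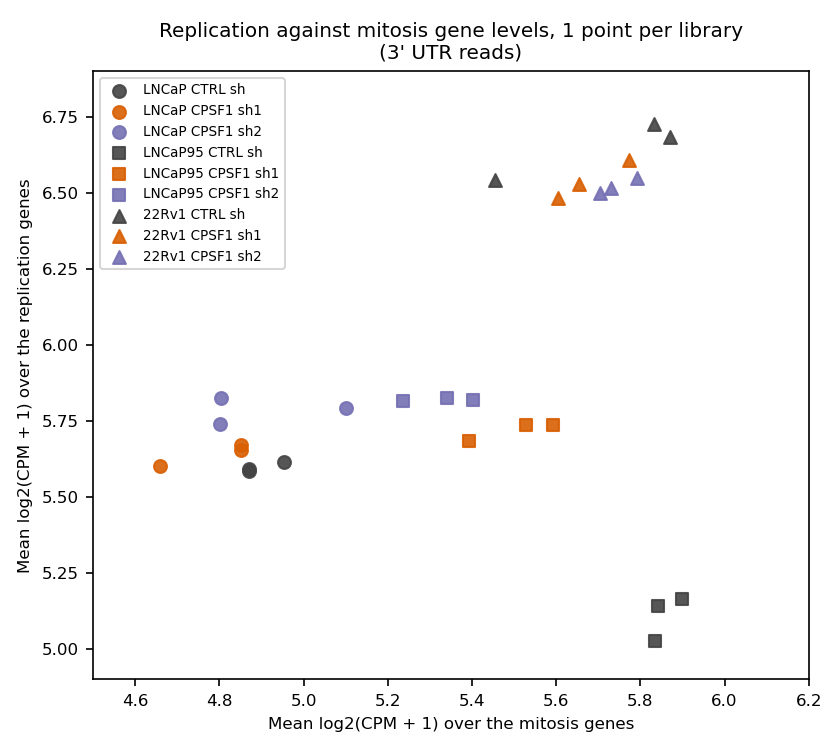
Mean log2(CPM + 1) over the 15 replication genes (y axis) against that over the 31 mitosis genes (x axis), 1 point per library, with the line by symbol and the hairpin by colour. The 3 LNCaP95 controls sit at the lower right, and the 6 LNCaP95 knockdown libraries lie above and to the left of them; LNCaP and 22Rv1 libraries keep to their own areas.

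Controls of the lines already differed in these genes. LNCaP95 controls exceeded LNCaP controls for 26 mitosis genes and for no replication gene, and 8 replication genes and no mitosis gene were lower, where 19.1% of all genes were higher and 20.2% lower. The medians were 1.02 for mitosis and -0.54 for replication genes. CDC20 averaged 877 CPM in LNCaP95 and 218 CPM in LNCaP controls (log2 2.00 ± 0.15, adjusted p = 2e-08), and MCM4 averaged 37.3 and 116 CPM (log2 -1.64 ± 0.14). KIF2C, which takes microtubules apart, was higher by 2.34 ± 0.23 (adjusted p = 7.5e-07). The genes lower in LNCaP95 were MCM2, MCM3, MCM4, MCM6, PCNA, CDC6, CDT1 and GINS2. Without TMM scaling the split was 30 higher and 3 lower, with the median of all genes at 0.21. Other genes of these roles, from the lists described below, matched the members for mitosis but not for replication. Of 53 other mitosis genes 27 were higher and 1 lower in LNCaP95 (50.9% and 1.89%). Of 43 other replication genes 5 were higher and 6 lower (11.6% and 14%, median -0.14).

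In 22Rv1 controls both sets stood above those of LNCaP: 23 mitosis genes and all 15 replication genes were higher and none was lower (23.9% and 23.2% of all genes were higher and lower). The spindle protein ASPM was higher by 2.60, MCM5 by 1.90 and MCM7 by 1.88 on the log2 scale. Against LNCaP95 controls, 8 mitosis genes were higher and 8 lower in 22Rv1, and 14 replication genes were higher (28.1% of all genes higher, 26.5% lower). Here CDK1 (-1.52), KIF2C (-1.41), CDC20 (-1.07) and AURKA (-1.03) were lower, while MCM4 (2.79) and CCNE2 (2.63) were higher. RRM1 was the replication gene that was not called (0.34).

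The sets also differ in the DNA at their start sites. RefSeq windows (GRCh38.p14, 250 bases before to 50 after the start, both strands searched) were at hand for 38 members, 26 mitosis and 12 replication genes. The CHR letters TTTGAA occurred in 19 of 26 mitosis promoters (73.1%) and 1 of 12 replication promoters (8.33%), against 11.7% of all 13921 windows. E2F cores, searched as TTCCCGC and as the variants TTGGCGC or else TTCGCGC and in addition TTGCCGC, occurred in 6 mitosis (23.1%) and 11 replication promoters (91.7%), against 17.4% of all. CCAAT was in 20 mitosis (76.9%) and 9 replication promoters (75%), against 36.4%. The sites below belong to genes called in LNCaP95 and to PLK1 and KIF11, and are printed 5′ to 3′ on the strand of the gene, with the matched letters in capitals (a match on the other strand reads as the reverse complement). The CHR matches of CDC20 (chr1:43358904-43358933, plus strand), CCNB2 (chr15:59105105-59105134, plus), PLK1 (chr16:23678848-23678877, plus) and KIF11 (chr10:92593090-92593119, plus) lie at -65, -29, -29 and -28 from the start.

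CDC20: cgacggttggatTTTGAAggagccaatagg
CCNB2: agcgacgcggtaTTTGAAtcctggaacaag
PLK1: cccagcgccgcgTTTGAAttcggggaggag
KIF11: ctctgtctctttTTCAAAttgaggcgccga

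The E2F matches of MCM6 (chr2:135876511-135876540, minus strand), MCM3 (chr6:52284727-52284756, minus), CDC6 (chr17:40287876-40287905, plus), TYMS (chr18:657603-657632, plus) and PCNA (chr20:5126663-5126692, minus) lie at -86, -3, 9, -39 and -59.

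MCM6: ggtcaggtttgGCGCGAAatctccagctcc
MCM3: gttcggaagttTTCGCGCcggggtggagtc
CDC6: gccattcggatTTGGCGCgagcgcggctgg
TYMS: gcgggacggccGCGGGAAaaggcgcgcgga
PCNA: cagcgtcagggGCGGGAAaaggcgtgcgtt

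A match of letters is not a bound site, and CCNA2, which fell in LNCaP95, had a CCAAT match but no TTTGAA in its window.

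The hairpins were also compared, each against the same 3 controls of its line. In LNCaP95, CPSF1 sh1 alone gave 8 higher and 5 lower members (7.39% and 7.48% of all genes) and CPSF1 sh2 alone gave 11 and 18 (15.6% and 16.2%). CDC20 fell by 1.23 ± 0.18 with sh1 and by 1.25 ± 0.13 with sh2, and CCNA2 by 0.90 ± 0.16 and by 1.08 ± 0.14. MCM4 rose by 0.90 ± 0.16 and 1.13 ± 0.14, MCM6 by 1.31 ± 0.27 and 1.29 ± 0.22, and CCNE2 by 1.73 ± 0.38 and 1.30 ± 0.39. CDK1 had -0.26 ± 0.18 with sh1, which was not called, and fell by 0.62 ± 0.15 with sh2. In LNCaP, sh1 alone called 7 members, 2 of them higher, and sh2 alone called 1 (CCNE2, higher), where 23.9% and 10.5% of all genes were called. In 22Rv1 sh2 alone called 1 (CDT1, lower; 2.11% of all genes). Tested against each other, sh2 and sh1 differed for no member in any line by edgeR, where 0.0363% of all genes differed in LNCaP, 0% in LNCaP95 and 0.0522% in 22Rv1. At an unadjusted p under 0.05 there were 4 members in LNCaP, 4 in LNCaP95 and 3 in 22Rv1, where 7.98%, 6.62% and 11.3% of all genes passed, and DESeq2 was not run for this contrast. Without CTRL sh replicate 1 of 22Rv1, 1 member differed.

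Other genes of the same processes were read from lists of 55 mitosis and 45 replication genes. In LNCaP95, 14 of 53 tested mitosis genes fell and 1 rose (median -0.27), led by the centromere gene CENPN (-1.30), the passenger gene INCENP (-1.43) and the centrosome kinase NEK2 (-1.06). Of 43 replication genes 13 rose and none fell (median 0.39), led by MCM10 (1.29), the dUTP pyrophosphatase DUT (0.83) and CDC7 (1.38), the kinase that starts origins, whose coding reads fell in the same libraries (-1.02, adjusted p = 0.026). In LNCaP 7 mitosis genes fell, among them KIF14 (-0.81), KIF15 (-0.63) and DLGAP5 (-0.70), none rose, and 2 replication genes rose, ORC5 (0.75) and FEN1 (0.39). That is 13.2% of the mitosis genes lower and 4.65% of the replication genes higher, where 10.1% of all genes were lower and 8.24% higher. In 22Rv1 edgeR called none of 52 and 43, with 10 and 4 at an unadjusted p under 0.05 (14.2% of all genes), and no DESeq2 count was made for these lists. Beside the 15.2% of all genes called in each direction in LNCaP95, these lists show 26.4% of mitosis genes lower and 30.2% of replication genes higher. By the interaction test, in LNCaP95 against LNCaP, 2 of 53 mitosis genes were lower (3.77%) and 3 of 43 replication genes higher (6.98%). Of all genes 4.41% were lower and 5.17% higher. In 22Rv1 against LNCaP95, 1 mitosis gene was higher (1.89%) and 8 replication genes lower (18.6%). There 5.31% of all genes were higher and 5.39% lower.

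The CDK inhibitors, which halt the cycle, differed by line. CDKN1A, the p53 target p21, averaged 58.0 CPM in LNCaP controls against 224 CPM with CPSF1 sh1 and 235 CPM with sh2 (log2 2.00 ± 0.16, adjusted p = 1.57e-07), and in 22Rv1 33.1 CPM against 79.9 and 99.3 CPM (log2 1.40 ± 0.17, adjusted p = 0.000845). In LNCaP95 it was not called (0.39, adjusted p = 0.074). There CDKN1B, p27, fell from 139.7 CPM to 55.64 and 30.96 CPM (log2 -1.68 ± 0.21, adjusted p = 1.27e-05), CDKN1C fell by 1.82, and CDKN2A rose by 1.37. In LNCaP CDKN1C fell by 1.31. CDKN2B had 0 to 5 reads per control library there, under 2 CPM. It passed the filter through its knockdown libraries alone, with a log2 value of 3.05. By the interaction test the response of CDKN1A was lower in LNCaP95 than in LNCaP (-1.60, adjusted p = 1.28e-05) and higher in 22Rv1 than in LNCaP95 (1.02, adjusted p = 0.00437), and it was not called between 22Rv1 and LNCaP (-0.58, adjusted p = 0.165). CDKN1B was lower in LNCaP95 than in LNCaP (-1.199, adjusted p = 0.0118) and CDKN2A was higher (1.47, adjusted p = 0.000969). CDKN1B (1.75) and CDKN1C (1.70) were higher and CDKN2A (-1.16) was lower in 22Rv1 than in LNCaP95, and CDKN1C was higher in 22Rv1 than in LNCaP (1.201).

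Reads past the annotated end gave a different picture. The table of the 10 kb downstream of each gene leaves out exons on the same strand. For members other than CENPA, GINS1 and MCM7 the region starts where the 3′ UTR region with its 300 added bases stops. For CENPA, GINS1 and MCM7 it starts further on. Reads in it can come from transcripts that ended beyond the known end. The downstream table is scaled to its own total, 170330 to 728430 reads per library, with its own TMM factors. Of the mitosis genes 29 could be tested and of the replication genes 15; KIF4A had no read in any library and BIRC5 was too low. A gene can pass the filter through its knockdown libraries alone, so counts among genes above 2 CPM in every library are given too. In LNCaP95, 12 mitosis and 8 replication genes rose and 2 mitosis genes fell (17.6% of all genes higher, 10.1% lower), in LNCaP 4 and 2 rose and 1 and 1 fell (9.52% and 5.2%), and in 22Rv1 5 and 2 rose and 2 mitosis genes fell (7.26% and 2.73%). Among genes above 2 CPM in every library there were 12 higher and 2 lower of 28 in LNCaP95 (19.5% and 19.9% of all genes under this filter), 3 and 2 of 28 in LNCaP (12.8% and 11.7%), and 4 and 3 of 32 in 22Rv1 (7.95% and 8.25%). The medians of mitosis, replication and all genes were 1.315, 1.499 and 0.22 in LNCaP95, 0.67, 0.62 and 0.13 in LNCaP, and 0.54, 0.69 and 0.19 in 22Rv1, and setting genes with no control read to their lower bound left the members' medians as they were.

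The poly(A) signals of the genes that turn on this result lie near the ends below, printed 5′ to 3′ on the strand of the gene in hg19, with the hexamer in capitals, from TYMS (chr18:673543-673572, plus strand), RRM1 (chr11:4160070-4160099, plus), ASPM (chr1:197053264-197053293, minus), KIF11 (chr10:94415118-94415147, plus), BUB1B (chr15:40513292-40513321, plus), CDK1 (chr10:62554578-62554607, plus) and CDC20 (chr1:43828826-43828855, plus).

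TYMS: ttcctaaaatagATTAAAgaactctcctta
RRM1: aggttattctgaAATAAAgataaacatttc
ASPM: ttttatgcatgtAATAAActaatatgtcat
KIF11: aaatccatggttAATAAAtgtggtttctac
BUB1B: tattttgtaaatAATAAAatagtatctgtt
CDK1: ctagctttgggaATTAAActgtttaacaaa
CDC20: ttttatttttctAATAAAgtcatgtctccc

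Within 50 bases of the end, 24 of 31 mitosis genes had AATAAA, 5 had ATTAAA in its place and 2 had neither, and 10, 1 and 4 of the 15 replication genes did, against 59.4% with AATAAA and 27.1% with neither among all 19540 genes of the 3′ UTR table. CDC20, whose downstream reads fell, carried the same hexamer as KIF11 and ASPM, whose downstream reads rose in every line.

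TYMS had no read downstream (chr18:673878-683877, plus strand, no other gene of that strand) in any of the 3 LNCaP95 controls. The knockdown libraries had 33 to 96 reads, 371 in all, or 63.0 to 181 CPM (median 106). Pooled over libraries and without TMM scaling, this was at least 43.2-fold higher than the floor of 3 reads over the 3 controls. The ratios of pooled reads and the fold bounds below are also without TMM scaling. TYMS passed the filter in this line through its knockdown libraries alone, so its p is not given. In 22Rv1 the controls had 1, 3 and 3 reads and the knockdown libraries 7 to 53, a rise by 2.16 ± 0.57 (adjusted p = 0.00499). In LNCaP, with 3, 3 and 1 against 2 to 23 reads, TYMS was not called (1.71, adjusted p = 0.0802). TYMS reads past the end were thus seen in all lines after knockdown, and in controls at 0 to 3 reads a library.

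RRM1 (chr11:4160406-4170405, plus) had 1, 1 and 0 downstream reads in LNCaP95 controls and 11 to 48 after knockdown, a ratio of pooled CPM of 30.4 (exact 95% interval 8.29 to 253, counting error only; adjusted p = 9.15e-07). In LNCaP it had 1, 0 and 0 reads against 4 to 10 (ratio 20.1, 3.42 to 810). The LNCaP controls averaged 1.25 CPM, so RRM1 passed the filter there through its knockdown libraries alone and its p is not given. The 22Rv1 controls had 8, 22 and 8 reads, and there RRM1 was not called (log2 0.33, adjusted p = 0.646). RRM1 therefore rose downstream in the lines where controls had next to no reads.

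ASPM (chr1:197042959-197052958, minus) rose in all 3 lines. It had 0, 0 and 2 reads in 22Rv1 controls and 31 to 66 after knockdown, a ratio of 37.1 (10.2 to 307). In LNCaP95 it had 0, 1 and 0 against 7 to 16 (ratio 22.0, 3.81 to 883). Controls averaged 1.83 CPM in 22Rv1, 1.25 CPM in LNCaP95 and 0 CPM in LNCaP. ASPM thus passed the filter through its knockdown libraries alone in every line, and its p is not given. In LNCaP no control had a read and the knockdown libraries had 3 to 13, at least 5.35-fold higher. The groups did not overlap in any line.

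KIF11 (chr10:94415450-94425449, plus), the motor that pushes spindle poles apart, had more reads. Its controls had 52.1, 11.3 and 9.27 CPM in LNCaP95 against 95.2 to 181 CPM (median 139), a rise by 2.44 ± 0.39 (adjusted p = 4.64e-07). In LNCaP it had 56.1, 28.9 and 39.2 CPM against 86.4 to 175 CPM (rise by 1.53 ± 0.34, adjusted p = 0.00035), and in 22Rv1 73.1, 43.3 and 129 CPM against 243 to 383 CPM (rise by 1.75 ± 0.25, adjusted p = 2.16e-08). All knockdown libraries stood above all controls in each line. The region also holds RN7SL644P, a pseudogene on the same strand whose reads cannot be told apart. MCM4 was the other member that rose in all 3 lines (2.92, 1.35 and 1.32 in LNCaP95, LNCaP and 22Rv1).

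**Figure D4:**
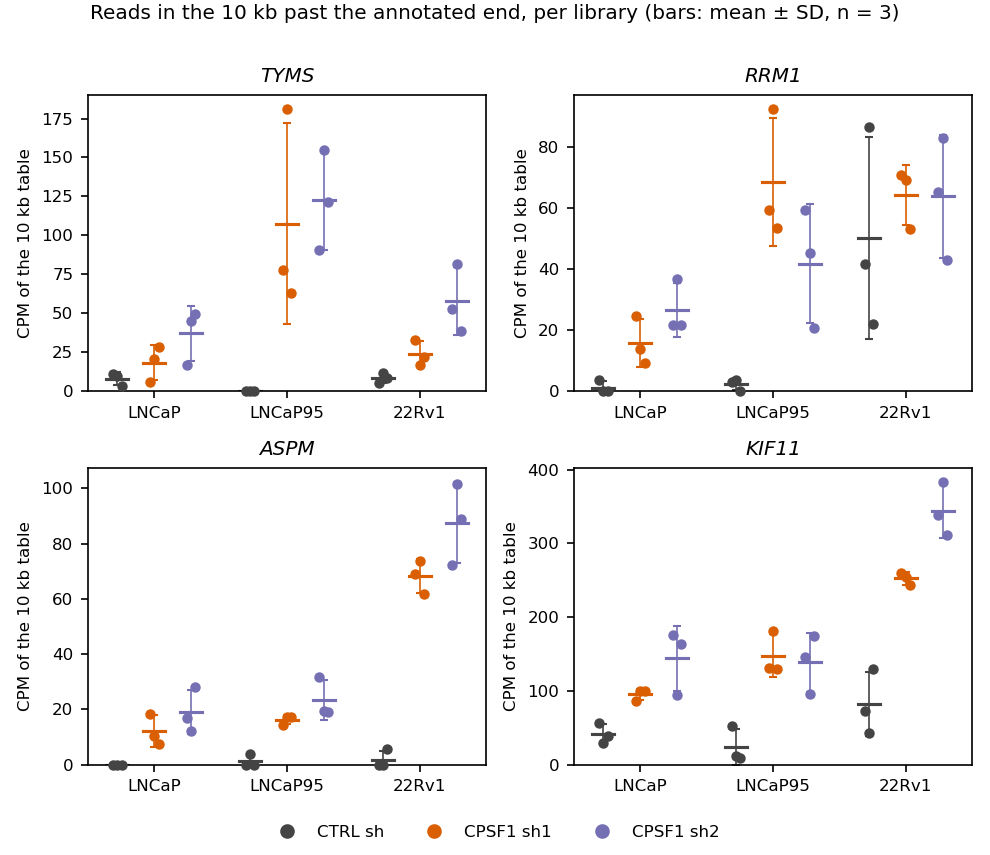
Reads in the 10 kb past the annotated end of 4 genes (CPM of the downstream table, linear axis from 0) in every library, coloured by hairpin, with bars for the mean ± SD of 3 libraries, cut at 0. The control points of TYMS in LNCaP95 and of ASPM in LNCaP are all at 0, KIF11 and ASPM lie higher in every knockdown library than in any control of their line, and RRM1 overlaps in 22Rv1.

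Of the other mitosis genes, BUB1B of the spindle checkpoint went up in LNCaP95, from 0, 2 and 3 reads to 25 to 44 (ratio 14.1, 5.951 to 43.95; adjusted p = 2.04e-06), and down in 22Rv1, from 146, 169 and 220 CPM to 84.7 to 132 CPM (log2 -0.68 ± 0.23, adjusted p = 0.0443). Its region overlaps PAK6 on the same strand. CDK1 rose from 126, 105 and 182 CPM to 326 to 445 CPM in LNCaP95 (1.40 ± 0.27, adjusted p = 2.67e-05) and by 1.67 ± 0.28 in LNCaP (adjusted p = 5.93e-07). CCNE2 rose from 12.3, 7.51 and 3.09 CPM to 62.9 to 129 CPM in LNCaP95 (3.36 ± 0.52, adjusted p = 1.39e-07). In all of these LNCaP95 and LNCaP values the knockdown libraries stood above the controls. Also higher in LNCaP95 were PLK1, TPX2, NUF2 (2.66), CCNB1 (2.16), PRC1 (1.91), MKI67 (1.83), ANLN (1.58), TOP2A (1.52), MCM3 (2.82), MCM2 (2.65), MCM6 (1.98) and MCM7. PLK1 had no control read and 0 to 11 reads per knockdown library, 23 in all. Reads were present in 4 of its 6 knockdown libraries, and pooled they stood 2.68-fold above the floor of 3 control reads. TPX2 went from 1 to 80 reads (ratio 28.0, 4.88 to 1118), with controls at a mean of 1.03 CPM. PLK1 and TPX2 thus passed the filter in LNCaP95 through their knockdown libraries alone. In 22Rv1 CCNB1 (1 against 71 reads, ratio 16.7, 2.90 to 669), NUF2 (1.40) and MKI67 (0.74) rose, and in LNCaP CDCA8 did (0 against 30 reads, at least 4.46-fold). With controls at a mean of 0.92 CPM and 0 CPM, CCNB1 in 22Rv1 and CDCA8 in LNCaP also passed the filter through knockdown libraries alone.

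Downstream reads of CDC20 and KIF2C fell in LNCaP95, as did their 3′ UTR reads. CDC20 went from 187, 177 and 201 CPM to 48.2 to 133.5 CPM (median 95.1; log2 -1.05 ± 0.28, adjusted p = 0.00246), and it also fell in 22Rv1 (-0.62 ± 0.21, adjusted p = 0.0447). KIF2C fell in LNCaP95 (-0.81) and LNCaP (-0.90), and GINS2 in LNCaP (-1.08). The region of CDC20 holds a long noncoding RNA on the same strand, and 19 of the 46 regions hold another gene of their strand. CENPE, MCM7, RRM2 and CDC6 have a newer model of their own reaching into the region, so that downstream reads of MCM7, called higher in LNCaP95, can lie within an annotated end. These falls depended on the scaling. Without TMM no member fell in LNCaP or 22Rv1 and 1 did in LNCaP95, while 9, 23 and 14 rose (LNCaP, LNCaP95, 22Rv1; all-gene medians 0.39, 0.55 and 0.47). Scaling to the total of all 4 tables gave 12, 32 and 19 that rose and none that fell (medians 0.62, 1.11 and 0.73). Without CTRL sh replicate 2 the count in LNCaP was 4 in place of 8, and without CTRL sh replicate 2 of 22Rv1 it was 5 in place of 9.

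The tables come from the same libraries, controls included. In LNCaP95, MKI67 had log2 values of -0.48 in the 3′ UTR and 1.83 downstream, CDK1 had -0.44 and 1.40, and NUF2 had -0.51 and 2.66, while MCM2 had 0.95 and 2.65, MCM6 had 1.29 and 1.98, and CDC20 had -1.25 and -1.05. The ratio of downstream to 3′ UTR reads was tested in 1 model over both kinds of count. It rose for 16 mitosis and 6 replication genes in LNCaP95 and fell for none (21.2% of all genes higher, 6.82% lower). TYMS, PLK1, TPX2, ASPM and RRM1 had at most 1 downstream read in any LNCaP95 control. Among genes above 2 CPM in every library, a filter chosen for this ratio after seeing the data, 12 of 28 members rose and none fell in LNCaP95 (23.7% and 12.1% of all genes), 2 rose and 1 fell of 28 in LNCaP (12.7% and 5.52%), and 4 rose and 2 fell of 32 in 22Rv1 (8.08% and 2.84%). In LNCaP it rose for CDK1 (1.33), KIF11 (1.66), ASPM and RRM1 (8.39% higher, 1.95% lower), and in 22Rv1 it rose for CCNB1, KIF11 (2.09), ASPM, NUF2 (1.38), MCM4 (1.23) and TYMS and fell for CDC20 (-0.90; 6.65% higher, 0.803% lower). Medians of mitosis, replication and all genes were 1.57, 0.80 and 0.53 in LNCaP95, 0.85, 0.44 and 0.30 in LNCaP, and 0.50, 0.81 and 0.33 in 22Rv1. Leaving out CTRL sh replicate 3 gave 14 calls in place of 22 in LNCaP95 and 2 in place of 7 in 22Rv1; in LNCaP the count of 4 became 1 without CTRL sh replicate 2 and 2 without CTRL sh replicate 3, and in 22Rv1 it was 3 without CTRL sh replicate 2 and 4 without any 1 of the CPSF1 sh2 libraries.

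As a share of all reads of the set, the downstream region held 0.670% ± 0.026 (SD, n = 3) for mitosis genes in LNCaP95 controls, 2.58% ± 0.117 with CPSF1 sh1 and 3.28% ± 0.317 with sh2. For replication genes it held 2.08% ± 0.079, 5.76% ± 1.59 and 6.67% ± 1.22, and for all genes 3.62% ± 0.135, 5.45% ± 0.351 and 6.57% ± 0.473. Both sets thus began below all genes in this line. Of KIF11's own reads 3.49% lay downstream in LNCaP95 controls and 35.7% and 40.6% after knockdown, with 7.23% against 23.9% and 31.3% in LNCaP and 7.29% against 27.2% and 38.1% in 22Rv1. For TYMS in LNCaP95 it was 0% against 8.13% and 9.38%, and for BUB1B 0.818% against 15.6% and 18.4%.

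Most reads of the mitosis genes lay in their coding sequence: 58.9% in LNCaP95, 65.7% in LNCaP and 67.1% in 22Rv1 controls, against 13.9%, 15.2% and 13.2% for replication genes and 14.61%, 14.32% and 15.98% for all genes. CENPF (93.6%), TOP2A (92.6%), CENPE (90.1%), ASPM (84.9%) and MKI67 (82.2%) had the highest of these named shares in LNCaP95 controls, and 11 of 31 mitosis genes were over 50% in coding sequence in the controls of each line. The 3′ UTR values of these genes therefore rest on a small part of their reads.

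**Figure D5:**
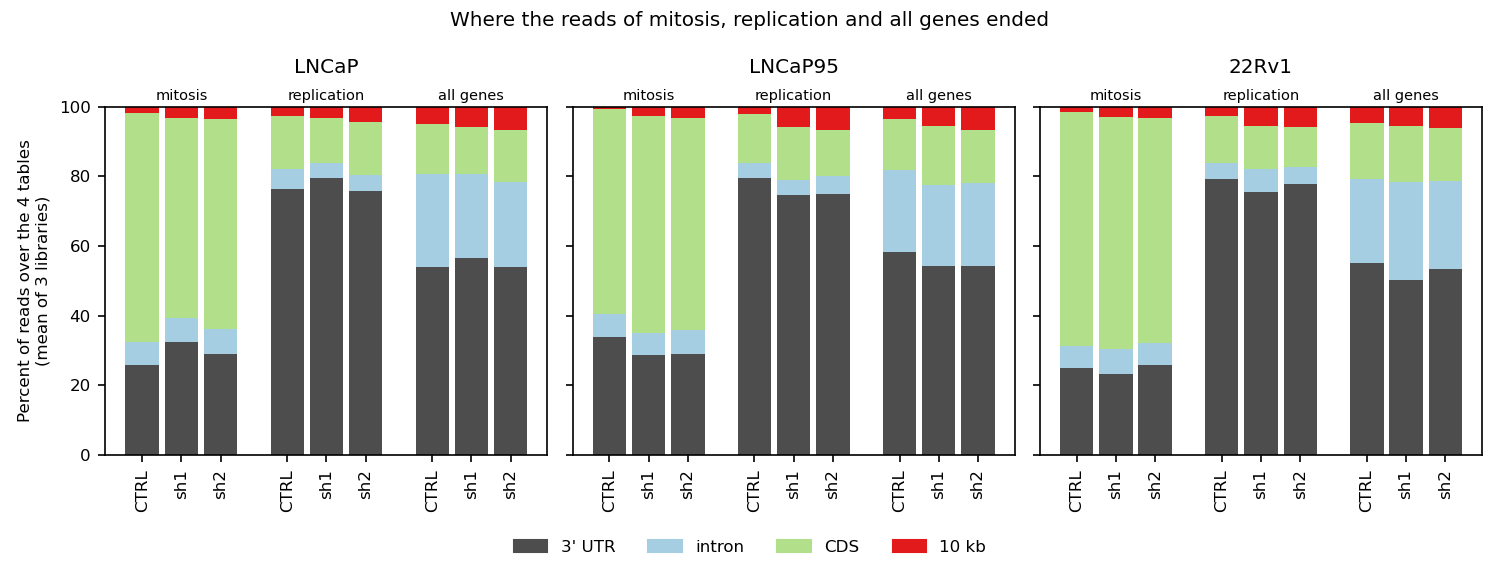
Percent of the reads of mitosis, replication and all genes (stacked bars, mean of 3 libraries) that fell in the 3′ UTR, intron, coding (CDS) and 10 kb downstream tables, by line and hairpin. The green CDS part of the mitosis bars is 57.5% to 67.1% in every group while that of the replication bars is 11.5% to 15.3%, and the red downstream part grows with both hairpins in every line.

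In coding sequence 25 mitosis and 6 or 7 replication genes could be tested. In LNCaP95 CCNA2 (-0.97), AURKA (-0.87), NUF2 (-0.71), CENPE (-0.55) and ASPM (-0.51) fell and MCM3 (1.45) and CDC6 (1.04) rose, where 12.5% of all genes were called. In LNCaP CENPF fell (-0.48; 7.1% of all genes called) and in 22Rv1 RRM1 did (-0.55; 1.01%). The count was 4 without CTRL sh replicate 2 and 14 without CPSF1 sh1 replicate 2 in LNCaP95. No gene was called without CTRL sh replicate 2 or 3 in LNCaP or without CTRL sh replicate 3 in 22Rv1, and without replicate 3 of CPSF1 sh1 or of CPSF1 sh2 there were 2 in LNCaP (CDK1 and CENPF).

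Among intron reads in LNCaP95, 14 of 29 mitosis genes fell and 1 rose, and 3 of 13 replication genes rose and none fell (13% of all genes higher, 10.8% lower). KIF20A, a kinesin of cytokinesis, fell by 1.53, CCNB1 by 1.46, AURKA by 1.30, ASPM by 0.98, BIRC5 by 0.87 and TOP2A by 0.86, and RRM2 (1.22), CCNE2 (1.15) and RRM1 (0.73) rose. CENPA, the centromeric histone, rose in introns in LNCaP95 (1.03) and LNCaP (1.41, adjusted p = 2.3e-06), where it was the member called (8.7% of all genes higher, 5.62% lower). SLC35F6 lies on the same strand within CENPA introns, and its 3′ UTR reads rose in those lines too (0.79, adjusted p = 0.000759, and 0.60, adjusted p = 0.0114). In 22Rv1 KIF2C fell (-0.50; 2.62% higher, 1.75% lower), a call that 7 of the 9 single-library removals ended and that became 2 (KIF2C and PRC1) without CPSF1 sh1 replicate 1. Without CTRL sh replicate 1 the LNCaP95 count was 9 in place of 18.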

How the data were processed

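PAC-seq libraries had been made from total RNA. The authors aligned reads to hg19 (GRCh37) with HISAT2 (2.1.0) and counted them with Subread (2.0.3), per the submitters' processing notes, and deposited raw counts per gene in 4 tables: 3′ UTRs extended by 300 bases, introns, coding sequence, and 10 kb downstream without exons of the same strand. The counts were used as deposited. For each line and table, 3 CTRL sh and 6 CPSF1 sh libraries were compared with edgeR 4.0.16 (quasi-likelihood test, TMM, genes with a mean above 2 CPM, Benjamini-Hochberg adjustment over all genes tested, threshold 0.05) in R 4.3.3, with SE taken from the fold change and F. Differences between lines, hairpins and tables were interaction or contrast terms of such fits. DESeq2 1.42.0, other scalings, filters, a replicate block, each hairpin alone and leaving out each library were alternatives. Floors of 3 reads and 95% exact intervals use pooled reads without TMM scaling and cover counting error only. The edgeR and DESeq2 fits were tested on simulated data. Values per library are given for 16 genes chosen by role and for those with the smallest p per line, in both the 3′ UTR and the downstream tables. The members and lists were chosen with earlier results of these data known. Poly(A) signals were read in GRCh37, in the 50 bases before the end of each deposited 3′ UTR with its 300 added bases taken off. Neighbouring genes and newer models came from Gencode 44, which held all 46 members and 90.1% of the 3′ UTR table's symbols. Replicate depth ranged from 3452413 to 12425417 reads, and replicates differed by more than sampling noise (chi-square per gene 2.80 to 24.7). Replicate numbers were not used as pairs in the main fits. Same-number deviations correlated over 0.1 in 3 of 9, 4 of 9 and 3 of 9 pairs (LNCaP, LNCaP95, 22Rv1). The last were all 3 pairs of CTRL sh with CPSF1 sh1 in 22Rv1 (0.54, 0.36 and 0.17), for which a blocked fit was added after seeing the data. Whether libraries of the same number were handled together was not tested.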

Additional observations from a re-analysis of the deposited data

Results flagged for a closer look

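The knockdown response of 25 gene and line pairs differed between lines by the interaction test of edgeR (log2 difference, adjusted p under 0.05). In LNCaP95 relative to LNCaP, CDC20 (-1.45), KIF2C (-0.94), AURKA (-0.80), CDK1 (-0.77) and CCNA2 (-0.67) were lower and CDT1 (1.30), MCM3 (1.09), MCM4 (0.83) and CDC6 (0.75) were higher. CDT1 fell by 0.83 in LNCaP and had 0.45 in LNCaP95, which was not called.

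In 22Rv1 relative to LNCaP95, CDC20 (1.48), KIF2C (0.99), TTK (0.79), CCNA2 (0.75), CENPF (0.75) and PLK1 (0.65) were higher, and CCNE2 (-1.45), MCM6 (-1.43), MCM3 (-1.16), CDT1 (-1.07), CDC6 (-1.03), PCNA (-0.96), GINS1 (-0.95), MCM4 (-0.92), RRM2 (-0.89) and MCM2 (-0.79) were lower. Every replication gene in this list was lower and every mitosis gene higher. The lines also differ in their control levels of these genes, and CPSF1 fell by 1.05 in LNCaP95 and by 0.73 in 22Rv1 on the log2 scale; the part of either in these differences was not tested.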

How the results depend on the processing

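Values are numbers of members called, main count first. 3′ UTR, LNCaP 4: sh1 alone 7, sh2 alone 1, and 10 with the reads of all tables summed. LNCaP95 24: sh1 alone 13. 22Rv1 0: DESeq2 1, 2 with summed library sizes, sh2 alone 1, summed reads 2. The 10 kb counts of 8 in LNCaP and 22 in LNCaP95 became 5 and 14 with the filter in every library, and the 9 in 22Rv1 became 14 without TMM, 19 with summed library sizes and 3 with sh1 alone. Introns: LNCaP 1 became 3 with summed library sizes, LNCaP95 18 became 6 with sh1 alone, and 22Rv1 1 became 0 without TMM, with summed library sizes, with the replicate block and with sh1 alone and 2 with sh2 alone. Coding: LNCaP 1 became 3 with DESeq2, 2 with summed library sizes and 2 with the filter in every library, LNCaP95 7 became 4 with sh1 alone and 15 with sh2 alone, and 22Rv1 1 became 0 with summed library sizes and with sh1 alone. The 22Rv1 ratio count of 7 became 11 without TMM, and the LNCaP95 ratio count of 22 became 12 with the filter in every library, chosen after seeing the data. For 22Rv1 with sh1 alone and the replicate block, also chosen after seeing the data, the counts were 0 (3′ UTR), 3 (10 kb), 0 (introns) and 0 (coding), the same as with sh1 alone without the block. The shift of replication minus mitosis levels, as a median over members, was -0.043 in LNCaP (0.17 as a mean) and 1.40 in LNCaP95 (1.10).

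With 1 library left out the counts ranged, in LNCaP, LNCaP95 and 22Rv1, from 0 to 10, 17 to 27 and 0 to 2 (3′ UTR), 4 to 8, 19 to 22 and 5 to 11 (10 kb), 1 to 1, 9 to 18 and 0 to 2 (introns), 0 to 2, 4 to 14 and 0 to 1 (coding) and 1 to 5, 14 to 20 and 2 to 7 (ratio). Response differences ranged from 5 to 11 for LNCaP95 against LNCaP, 0 to 0 for 22Rv1 against LNCaP and 9 to 18 for 22Rv1 against LNCaP95, control differences from 27 to 38, 31 to 44 and 26 to 30 in the same order, and hairpin differences from 0 to 0, 0 to 0 and 0 to 1.

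Signs reversed with reads summed over the tables for CENPA in LNCaP (0.60) and LNCaP95 (0.50), CDCA8 in LNCaP95 (-0.40) and MKI67 in 22Rv1 against LNCaP95 controls (0.71), and with summed library sizes for KIF2C 10 kb reads in LNCaP95 (0.10). Of 1493 values of called members under the other alternatives 1339 stayed called and 1 changed sign, and of 2754 with a library left out 2371 stayed called and 0 changed sign. With the replicate block the 3′ UTR members called were 3 in LNCaP, 22 in LNCaP95 (9 higher, 13 lower) and 0 in 22Rv1. The cause of these changes was not tested. At 0 to 5 downstream reads per control library, depth limits the fold changes to bounds or wide intervals.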
